A study of Mus musculus with 8 samples.

Results

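Pdx1, Nkx6-1 and Nkx6-2 are homeobox genes of the pancreatic progenitor. Every non-control probe of the array that carries one of these 3 gene names was taken, in all 8 arrays, without regard to its values. This gave 3 probes, 1 for each gene, of 41174 non-control probes. RNA came from pancreatic epithelium of mouse embryos at stage e15.5 (noon of the day of the plug being e0.5), with the dorsal and ventral organ dissected by hand and combined. The Sox9 mutant group (4 pools) was homozygous for a loxP-flanked Sox9 allele (Sox9 fl/fl) and carried Rosa26-CreER, a Cre recombinase that tamoxifen switches on. The wild-type group (4 pools) consisted of littermates with Rosa26-CreER and without the floxed alleles. Both groups came from the cross of the Sox9-flox line, which has a mixed background of FVB/N, C57Bl/6J and CD1, with the Rosa26-CreER line on C57Bl/6J, and the dams of both received 6 mg of tamoxifen per 40 g in corn oil at e12.5. Rosa26 is active in nearly all cells, so that recombination was not limited to one pancreatic lineage. Each pool held the RNA of 4 pancreata, and about 250 ng of it was labelled with Cy3 for a one-colour Agilent array.

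PDX1 is a ParaHox homeodomain activator that is needed for growth of the pancreatic bud and later for insulin transcription in beta cells. In the early bud it is present in progenitors throughout the epithelium, and during the secondary transition, the time sampled here, it becomes strongest in differentiating beta cells and persists at a lower level in other epithelial cells. NKX6.1 and NKX6.2 are homeodomain repressors of the NK family with closely related DNA-binding domains. In the mouse pancreas both factors oppose PTF1A to set apart trunk from tip progenitors and can partly replace each other, and NKX6.1 then remains in beta cells, whereas NKX6.2 is better known from the nervous system. SOX9 is a high-mobility-group transcription factor of the same progenitors. The comparison asks how the RNA of these genes stood in epithelium 3 days after the Sox9 deletion was induced.

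The sequence upstream of each gene is shown because all 3 genes belong to one progenitor programme and their probes were compared in the same RNA. The windows hold the 250 bases before the start of each gene in RefSeq annotation of GRCm38.p6, written from 5′ to 3′ on the strand of the gene, and all 3 genes matched the table by symbol. Pdx1 lies on chr5:147269847-147270096 (plus strand), Nkx6-1 on chr5:101664712-101664961 (minus strand) and Nkx6-2 on chr7:139582798-139583047 (minus strand). Capitals mark every match of 8 motifs searched on both strands, namely the SOX core sequences ACAAAG and ACAAT, the E-box CACGTG, the forkhead motif GTAAAC, the ONECUT motif ATCAAT, the homeodomain motif TAATTA, the CCAAT box and the TATA box TATAAA.
Pdx1: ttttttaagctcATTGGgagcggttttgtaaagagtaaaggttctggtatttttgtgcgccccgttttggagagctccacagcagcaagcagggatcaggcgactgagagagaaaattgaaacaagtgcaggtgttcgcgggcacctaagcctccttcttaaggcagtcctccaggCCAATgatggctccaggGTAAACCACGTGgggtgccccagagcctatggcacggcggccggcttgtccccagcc
Nkx6-1: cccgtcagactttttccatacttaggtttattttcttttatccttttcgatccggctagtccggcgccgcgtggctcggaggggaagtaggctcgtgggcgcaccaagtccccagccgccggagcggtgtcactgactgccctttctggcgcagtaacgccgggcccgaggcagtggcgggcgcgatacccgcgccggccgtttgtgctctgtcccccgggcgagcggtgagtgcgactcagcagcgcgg
Nkx6-2: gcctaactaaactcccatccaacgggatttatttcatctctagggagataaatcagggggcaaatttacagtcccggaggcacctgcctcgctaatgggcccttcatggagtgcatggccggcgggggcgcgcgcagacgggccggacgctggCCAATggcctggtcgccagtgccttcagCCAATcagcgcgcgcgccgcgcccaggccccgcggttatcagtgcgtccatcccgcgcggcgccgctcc
The Pdx1 window held GTAAAC from 57 to 52 bases before the start and, directly after it, CACGTG from 51 to 46 bases before the start. It also held CCAAT from 74 to 70 bases before the start and the same box on the other strand from 238 to 234 bases before the start. The Nkx6-2 window held CCAAT at 2 places, from 97 to 93 and from 69 to 65 bases before the start. None of the 8 motifs was found in the Nkx6-1 window, and neither SOX core sequence was found in any of the 3 windows. Of 32851 mouse promoter windows of the same length, 33.8% held CCAAT, 6.92% GTAAAC, 6.02% CACGTG, 16.5% ACAAAG, 27.7% ACAAT, 6.72% ATCAAT, 4.84% TAATTA and 12.4% TATAAA. The GC content was 54.8% for Pdx1 and 65.2% for each of the Nkx6 genes, against a median of 52.4% over all windows. The number of CpG dinucleotides was 10 in the Pdx1 window, 30 in the Nkx6-1 window and 26 in the Nkx6-2 window, against a median of 6. These matches describe letters of the reference and were not tested for binding.

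The array of mutant replicate 2 stood apart from the other 7. Its median processed signal was 735 scanner units, against 200 to 252 units on the other arrays, and the scanner software called 85.9% of its probes well above background, against 69.0% to 73.4%. Across probes, which do not count as independent replicates, its median Pearson r with arrays of its own group was 0.910, and that of the others was 0.9929 to 0.9951. Results for the members and the counts of each gene list are therefore given with and without it. All Sox9 mutant arrays were on slide 2 and scan 2 and all wild-type arrays on slide 1 and scan 1, so slide, scan and genotype cannot be told apart, and no value within a slide exists. Of the 29460 probes tested, 1131 (3.84%) passed an adjusted p of 0.05 in the limma fit, 658 (2.23%) lower and 473 (1.61%) higher in mutants. An unadjusted limma p under 0.05 was reached by 6943 of the 29460, against which unadjusted counts of the lists below are to be read. Levels below are log2 of the processed signal minus the 75th percentile of the same array. The median log2 difference of mutant minus wild-type was 0.05 over all tested probes and -0.04 over the 15815 named genes.

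The targeted gene was read by 3 probes, all on chromosome 11. The probe A_52_P214630 stood at 0.50 ± 0.08 in Sox9 mutants and 1.83 ± 0.07 in wild-type (SD, n = 4 pools each). Its log2 difference was -1.33 (SE 0.07, limma adjusted p = 0.00116), which left 39.8% of the wild-type signal. The probe A_52_P577484 stood at -0.41 ± 0.32 in mutants and 2.10 ± 0.11 in wild-type, a difference of -2.51 (adjusted p = 0.00133, limma) that left 17.6%. The third Sox9 probe, A_51_P451606, was dimmer and did not pass, at -1.78 ± 0.81 in mutants and -2.41 ± 0.22 in wild-type (difference 0.63, adjusted p = 0.342, limma). Without mutant replicate 2, that difference was 0.23. The labels do not say which exons the deletion removes, so it was not known which of the probes lie inside it.

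**Figure D1:**
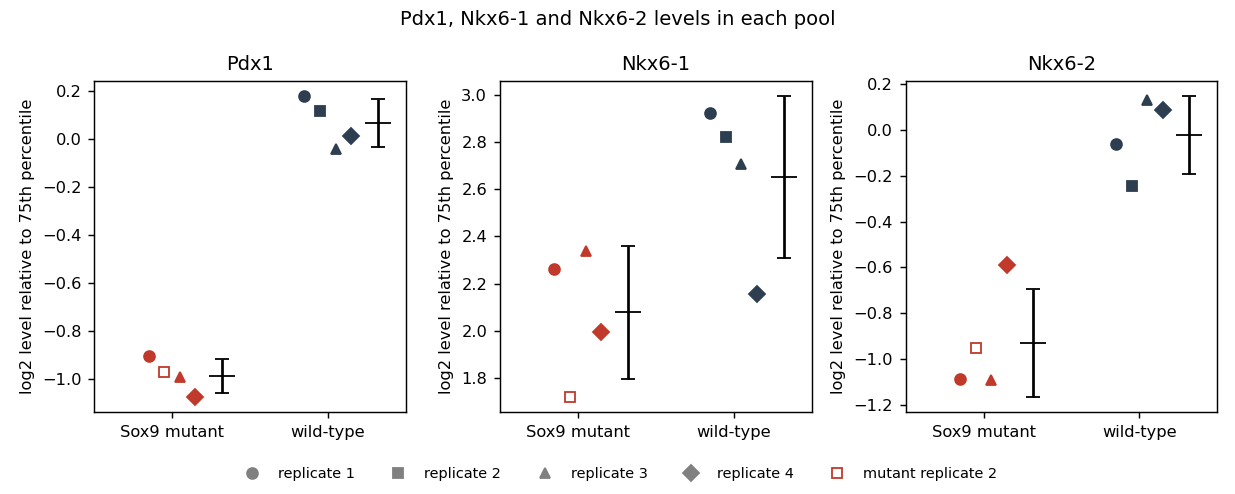
Log2 level, scaled by the 75th percentile of each array, of Pdx1, Nkx6-1 and Nkx6-2 in each Sox9 mutant pool (left in each panel) and each wild-type pool, with bars for the mean and SD of 4 pools. The groups are separate for Pdx1 and for Nkx6-2, and for Nkx6-1 wild-type replicate 4, at 2.16, lies among the mutant pools.

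Pdx1 RNA fell to about 48.2% of its wild-type level in Sox9 mutant epithelium, the largest and least variable difference among the 3 genes. The probe (A_52_P31510, NM_008814) lies on mm8 chr5:147585343-147585402, plus strand. It read 1221, 1244, 1032 and 976 scanner units in mutant replicates 1 to 4 and 2224, 2236, 1805 and 2222 units in wild-type replicates 1 to 4. No mutant pool reached the lowest wild-type pool, also after scaling, when the levels were -0.90, -0.97, -0.99 and -1.08 in mutants and 0.18, 0.12, -0.04 and 0.01 in wild-type. The mean was -0.99 ± 0.07 in mutants and 0.07 ± 0.10 in wild-type (SD, n = 4 pools each). The log2 difference was -1.05 (SE 0.08, 95% confidence interval -1.23 to -0.88), a 2.07-fold decrease with an adjusted p of 0.00214 in limma. The exact two-sided permutation p was 0.0286, the smallest that 4 against 4 pools can give. In the whole table Pdx1 ranked 20 by p and 145 by size of fall among the 658 probes called lower, and 1.08% of all tested probes had a log2 difference at or below that of Pdx1. The call held with each array left out in turn, where the difference ran from -1.09 to -1.02 and the adjusted p did not exceed 0.0161.

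Nkx6-2 RNA fell as well, to 53.3% of wild-type. Its probe (A_51_P402617, NM_183248) lies on mm8 chr7:139432551-139432610, minus strand. The mutant pools read 1075, 1264, 962 and 1369.6 units and the wild-type pools 1882, 1739.9, 2039.8 and 2342 units. The scaled levels were -1.09, -0.95, -1.09 and -0.59 in mutants and -0.06, -0.24, 0.13 and 0.09 in wild-type. The groups did not overlap, with mutant replicate 4 nearest to the wild-type pools. The mean was -0.93 ± 0.24 in mutants and -0.02 ± 0.17 in wild-type (SD, n = 4 pools each). The log2 difference was -0.91 (SE 0.14, 95% confidence interval -1.24 to -0.58), a 1.88-fold decrease with an adjusted p of 0.0198 in limma. The exact two-sided permutation p was 0.0286, again the smallest possible. The size of the fall was steady when single arrays were left out, from -1.02 to -0.85, but the call was not. The adjusted p passed without mutant replicate 2 (0.0120), mutant replicate 4 (0.0231) or wild-type replicate 2 (0.0416), and was between 0.0582 and 0.0714 without any one of mutant replicates 1 and 3 and wild-type replicates 1, 3 and 4.

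Nkx6-1 was lower on average in mutants and did not pass the test. Its probe (A_51_P441153, NM_144955) lies on mm8 chr5:101899606-101899665, minus strand. The mutant pools read 10956, 8032, 10373 and 8188 units and the wild-type pools 14918, 14570.3, 12143 and 9831 units. The scaled levels were 2.26, 1.72, 2.34 and 1.99 in mutants and 2.93, 2.82, 2.71 and 2.16 in wild-type. Wild-type replicates 1 to 3 lay above every mutant pool, and wild-type replicate 4 lay below mutant replicates 1 and 3. The mean was 2.08 ± 0.28 in mutants and 2.65 ± 0.34 in wild-type (SD, n = 4 pools each). The log2 difference of -0.58 had an SE of 0.21, an unadjusted p of 0.0256 and an adjusted p of 0.158 in limma, and the exact two-sided permutation p was 0.0857. Its 95% confidence interval, from -1.06 to -0.09, corresponds to 48.0% to 93.8% of the wild-type level remaining and takes in the difference seen for Pdx1. Without wild-type replicate 4 the difference was -0.74 (adjusted p = 0.0919, limma), and no array left out in turn brought it past the threshold.

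Of the 3 members, 2 were called lower, and in those 2 the groups did not overlap. Over all tested probes 2.23% were called lower, and in 12.6% every mutant value lay below every wild-type value. The 3 genes were chosen with earlier results of these arrays known, so no test was made of this count. Each member had a single spot on the array, well above background and unsaturated on all 8 arrays, with an error of at most 10.1% of the signal by the scanner software's estimate. There was thus no other probe to compare for any of the 3 genes, and the probe decides which transcripts are read. In RNA of a dissected tissue, fewer cells that express a gene, less RNA in each cell and a different share of other tissue cannot be told apart.

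Mutant replicate 2 mattered little for Pdx1 and Nkx6-2. That array read 0.02 above the mean of the other mutant arrays for Pdx1, where 3524 probes of like brightness had a median offset of -0.02, and 0.03 below it for Nkx6-2, where the median offset was -0.01. For Nkx6-1 it read 0.48 below the others, in a range of brightness where 1946 probes had a median offset of -0.25. Without this array the log2 differences were -1.06 for Pdx1, -0.90 for Nkx6-2 and -0.46 for Nkx6-1, and again Pdx1 and Nkx6-2 were called and Nkx6-1 was not. In that fit 16% of all tested probes were called and 8.82% were called lower.

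**Figure D2:**
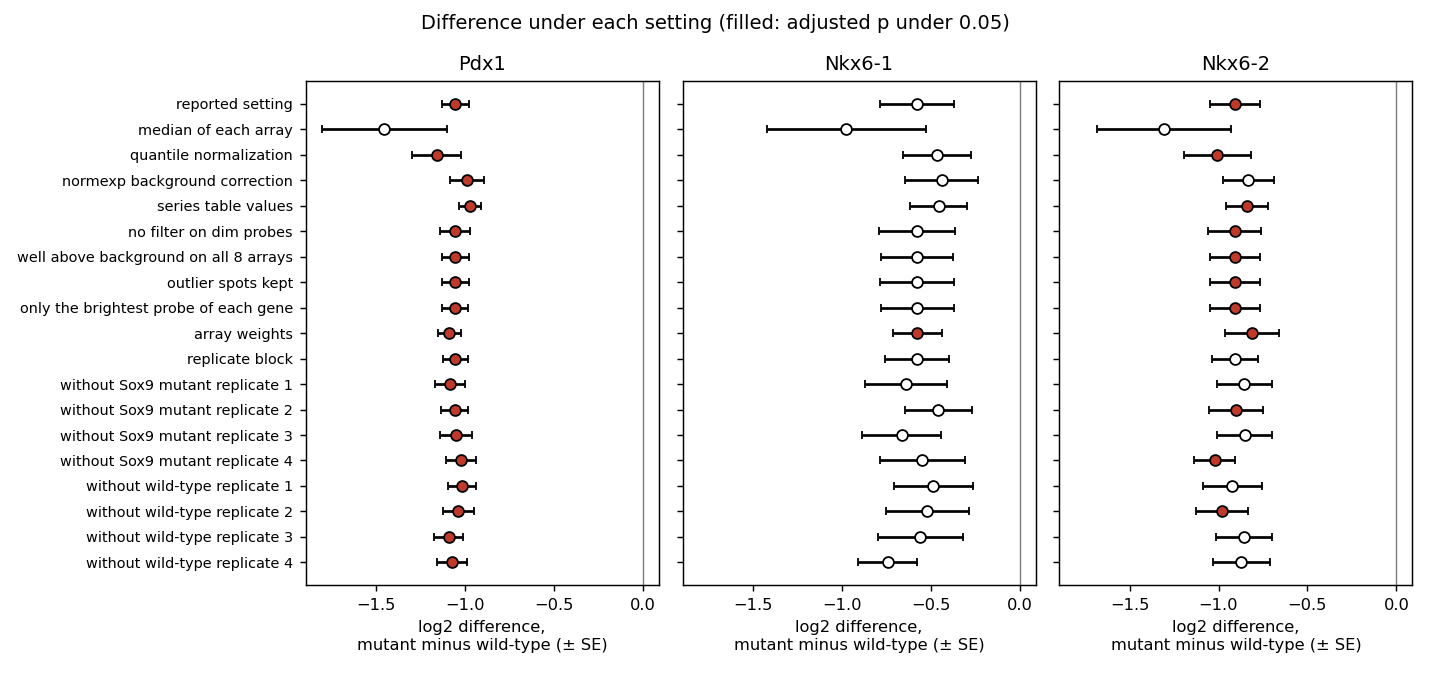
Log2 difference, Sox9 mutant minus wild-type, of each member under each of 19 processing settings, with bars of 1 SE and filled points where the limma adjusted p was under 0.05. All points of the 3 genes lie below 0, and 18 are filled for Pdx1, 1 for Nkx6-1 and 11 for Nkx6-2.

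Ratios within an array do not depend on the number subtracted from each array, whether percentile or median, but they can move with quantile normalization or background correction. The log2 ratio of Pdx1 to Nkx6-2 was -0.06 ± 0.30 in mutants and 0.09 ± 0.26 in wild-type (SD, n = 4 pools each), a difference of -0.14 with an exact permutation p of 0.486. With 1 array left out it ran from -0.23 without wild-type replicate 3 to nearly 0 without mutant replicate 4. The log2 ratio of Pdx1 to Nkx6-1 averaged -3.06 ± 0.27 in mutants and -2.59 ± 0.29 in wild-type, a difference of -0.48 (exact permutation p = 0.114, 0.343 adjusted over the 3 pairs, two-sided). With 1 array left out it ran from -0.60 without mutant replicate 2, with an adjusted p of 0.0857 from the same exact test, to -0.33 without wild-type replicate 4. With quantile normalization it was -0.69 (exact permutation p = 0.0286, adjusted 0.0857). With normexp background correction it was -0.55 and with series table values -0.52, each with the same exact p and adjusted p. An exact p of 0.0286 is the smallest possible and becomes 0.0857 over 3 pairs when the other pairs are larger. This ratio therefore could not pass alone. For Nkx6-2 to Nkx6-1 the mean log2 ratio was -3.01 ± 0.45 in mutants and -2.67 ± 0.46 in wild-type, a difference of -0.33 (exact permutation p = 0.343, adjusted 0.486). It ran from -0.48 without mutant replicate 4 to -0.13 without wild-type replicate 4, and was -0.54 with quantile normalization (adjusted exact p = 0.214). The data therefore did not resolve whether Pdx1 or Nkx6-2 changed by a different factor than Nkx6-1. The level of one probe against another depends on how well each probe binds, so only the change of a ratio between genotypes is compared.

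The members were also set against 2 epithelial genes, Cdh1, the gene of E-cadherin, and Epcam (named Tacstd1 on the array), which encodes an epithelial adhesion molecule. Cdh1 differed by -0.01 (adjusted p = 0.939) and Epcam by -0.05 (adjusted p = 0.749) in limma. They were the only 2 of the 8 epithelium markers below 0. The other 6 were above 0, and the median of the list was 0.18, so the ratios to Cdh1 and Epcam do not stand for the whole list. Relative to Epcam, the log2 level of Pdx1 was -4.21, -4.08, -4.14 and -4.41 in the mutant pools and -3.10, -3.15, -3.16 and -3.40 in the wild-type pools. The groups did not overlap and differed by -1.01. Relative to Cdh1 the difference for Pdx1 was -1.04. Nkx6-2 gave -0.86 relative to Epcam and -0.89 relative to Cdh1, again without overlap between the groups. For each of these 4 ratios the exact two-sided permutation p was 0.0286, the smallest possible, and 0.0429 after adjustment over the 6 ratios. Nkx6-1 gave -0.53 relative to Epcam and -0.56 relative to Cdh1, each with an exact permutation p of 0.0857 before and after adjustment. With wild-type replicate 4 left out, the ratio of Nkx6-1 to Cdh1 differed by -0.75 with an adjusted exact p of 0.0343, and that to Epcam did not pass.

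**Figure D3:**
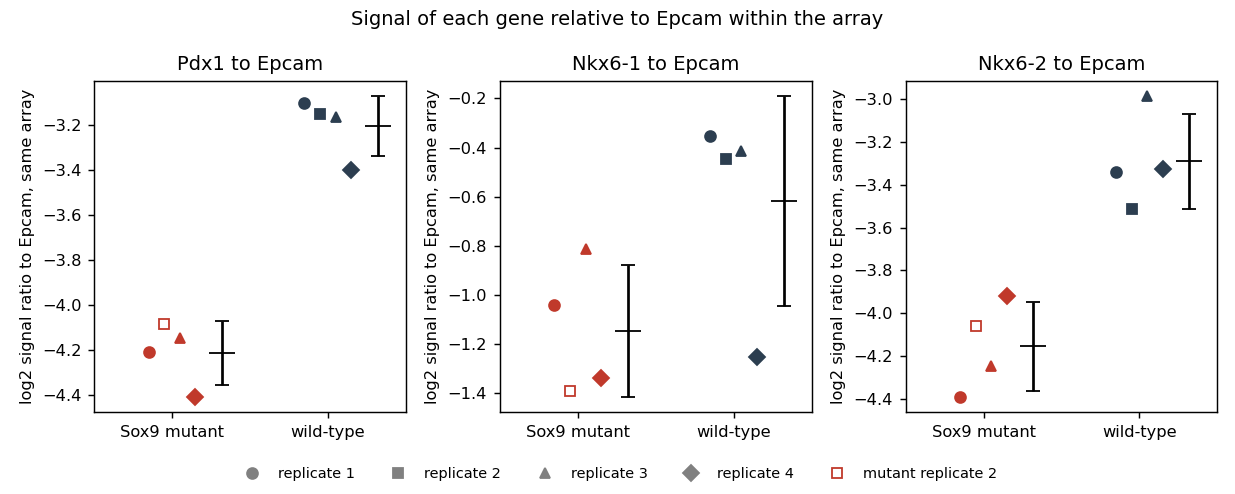
Log2 ratio of each member to Epcam within each array, for the Sox9 mutant pools (left in each panel) and the wild-type pools, with bars for the mean and SD of 4 pools and an open square for mutant replicate 2. The Pdx1 ratio lies between -4.41 and -4.08 in mutants and between -3.40 and -3.10 in wild-type, and the Nkx6-1 ratio of wild-type replicate 4, at -1.25, lies with the mutants.

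Markers of other cell types were set beside the members. None of the 8 epithelium markers was called by limma, although 3 had an unadjusted p under 0.05, and their summed linear level, in multiples of each array's 75th percentile, was 173 to 237 in mutants and 168 to 182 in wild-type. Mutant replicate 2 was the lowest mutant pool, and the other 3, from 212 upwards, lay above every wild-type pool. Without mutant replicate 2, 4 of them were called higher (Krt19, Krt8, Cldn6 and Krt18, named after their values were seen). Likewise 0 of the 8 acinar, 6 endothelium, 6 blood and 6 tested gut and stomach markers were called, and an unadjusted p under 0.05 was reached by 1 acinar and 1 gut and stomach marker. Of the 8 mesenchyme markers, 1 was higher, Nkx3-2 (0.57, adjusted p = 0.0187, limma), and it too was named after its value was seen. The summed level of the mesenchyme markers, on the same scale, was 252 to 324 in mutants and 307 to 361 in wild-type. It lay above the summed level of the epithelium markers in both groups, in RNA labelled as epithelium. The summed level of the acinar markers was higher still, at 552 to 817 in mutants and 709 to 836 in wild-type. How well each probe binds enters such sums, so they do not give the share of each tissue. In the fit without mutant replicate 2, 1 acinar marker was called lower (Bhlha15), 2 mesenchyme markers higher (Nkx3-2 and Barx1), and among gut and stomach markers 1 higher (Sox2) and 1 lower (Nkx6-3). Of the neuron and glia markers, 6 of 8 were tested and 2 were lower in mutants, Sox10 (-1.05, adjusted p = 0.00802) and S100b (-1.63, adjusted p = 0.0102, limma), also named after their values were seen. The summed level of all 8 neuron and glia markers was 2.58 to 3.82 in mutants and 5.25 to 6.96 in wild-type. The glial precursor factors Olig1 and Olig2, which are part of this sum, did not pass the brightness filter. Leaving out mutant replicate 2 made 3 of the 6 lower, Elavl4 being the added one. Nkx6-2 is known from the nervous system as well as from the pancreas, and the part that the lower neural markers had in its difference was not tested.

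Nkx6-3, the remaining gene of the Nkx6 family and known from the stomach, was read by 1 dim probe. It gave 44.2, 1178, 38.8 and 29.9 units in the mutant pools and 141, 73.4, 68.8 and 89.2 units in the wild-type pools. Mutant replicate 2 was far above all other pools, and the other 3 mutant pools were lower than each wild-type pool. The log2 difference was -0.14 with all arrays (adjusted p = 0.940) and -1.34 without mutant replicate 2 (adjusted p = 0.0173, limma). On that array 2836 probes of like brightness had a median offset of 2.0 from the other mutant arrays, and Nkx6-3 an offset of 4.79. Among the ParaHox relatives of Pdx1, Gsx1 differed by -0.23 (adjusted p = 0.384) and Cdx2, an intestinal factor whose probe was well above background on 4 of the 8 arrays, by -1.51 (adjusted p = 0.558). These differences were -0.35 for Gsx1 (adjusted p = 0.0913) and -2.91 for Cdx2 (adjusted p = 0.115, limma) without mutant replicate 2. Cdx1, Cdx4 and Gsx2 did not pass the brightness filter. Of the 3 tested genes of this list, 0 were called by limma with all arrays, and 0 had an unadjusted p under 0.05.

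Genes next to the members were described from the mm8 positions of the array's probes, within 150 kb, and are named here after their values were seen. Around Pdx1 there were 6 probes of other genes, of which 5 were tested and 0 were called in limma, and 0 of them had an unadjusted p under 0.05. Plut (2210019I11Rik on the array), a long noncoding RNA transcribed next to Pdx1, had its probe 45.9 kb away. It read 215, 898, 150.3 and 155 units in mutants and 253, 286, 205 and 309.6 units in wild-type. Mutant replicate 2 stood above every other pool, and the difference was -0.13 (adjusted p = 0.873). Without that array Plut was 1.60-fold lower in mutants (log2 difference -0.68, adjusted p = 0.0141, limma). In that fit the other tested probes around Pdx1 did not pass, with limma adjusted p from 0.0913 for Gsx1 to 0.903 for Flt3. Over all tested probes, 8.82% were called lower in it. The array had no other probe within 150 kb of Nkx6-1. Beside Nkx6-2, at 2.1 kb, lay the probe of Inpp5a, an inositol phosphatase gene, which differed by -0.11 (adjusted p = 0.465).

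Of 18 other transcription factors of the pancreatic progenitor, 17 were tested, 2 were higher and 0 were lower in mutants, with a median log2 difference of -0.05 against -0.04 over all named genes. Over all named genes 4.59% were called, 3.01% lower and 1.58% higher. At an unadjusted p under 0.05, 3 of the 17 were lower and 4 were higher. Hes1, the Notch effector that represses endocrine differentiation, read 3669, 3985, 3012 and 3176 units in mutants and 2026, 2369, 1999 and 2356 units in wild-type, with every mutant pool above every wild-type pool. Its log2 level rose by 0.53 (limma adjusted p = 0.0102). Onecut1, which encodes a factor acting upstream of Pdx1 and Neurog3 in the early bud, rose by 0.94 (adjusted p = 0.0240). Ptf1a, the tip and acinar factor that NKX6 proteins oppose, differed by -0.32 and did not pass (adjusted p = 0.205), nor did it without mutant replicate 2 (-0.19, adjusted p = 0.0886). Without mutant replicate 2 the counts were 3 higher and 2 lower, in a fit that called 5.6% of all named genes higher and 10.9% lower. With each other array left out, 1 or 2 were higher and 0 were lower.

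No gene for a partner protein of PDX1 was called. The list held 12 genes for PBX, MEIS and related cofactors and for proteins that bind or modify PDX1, all of which were tested, and 0 were called by limma, with a median of 0.08. At an unadjusted p under 0.05 there were 2 lower and 1 higher. The smallest p-values belonged to Pknox1 (-0.34, adjusted p = 0.0681) and Pbx3 (-0.39, adjusted p = 0.0817), which encode homeodomain proteins that bind DNA together with other homeodomain factors. Both were called lower without mutant replicate 2.

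Transcription factors of the endocrine lineage, which arises from trunk progenitors, were mostly lower in mutants. Of 12 tested, 9 were called lower and 0 higher, with a median of -1.15. Neurog3, the factor that commits trunk cells to endocrine fate, read 1300, 1467, 1371 and 863 units in mutants and 4134, 4568, 3931 and 4029 units in wild-type. Its log2 level fell by 1.89 (limma adjusted p = 0.00286). Its downstream or associated factors Pax4 (-1.74, adjusted p = 0.00543), Insm1 (-1.67, adjusted p = 0.00336), Rfx6 (-1.35, adjusted p = 0.00648) and Myt1 (-1.02, adjusted p = 0.00850) fell too. Nkx2-2, a homeodomain factor of the NK class that acts with NKX6.1 in beta cells, fell by 0.86 (adjusted p = 0.0129). Without mutant replicate 2, 11 of the 12 were lower, and without wild-type replicate 1 or 3 the count was 6. This list had been seen to be low in the same arrays before, and it does not support the members' values.

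Of 13 beta cell genes that PDX1 or NKX6.1 bind or regulate, or that mark the mature cell, 12 were tested, 1 was called lower and 0 higher, with a median of -0.72. Abcc8, a subunit gene of the beta cell potassium channel, fell by 0.86 (adjusted p = 0.0146, limma). Ero1b, which encodes an oxidase of the endoplasmic reticulum that helps to fold proinsulin, had the next smallest p and did not pass, at -0.75 (adjusted p = 0.0678). Ins1 differed by -1.29 (adjusted p = 0.188) and Ins2 by -1.45 (adjusted p = 0.159). In mutant replicate 2 the insulin genes read 9768 units for Ins1 and 24313 units for Ins2, below every other pool. Without it the differences were smaller and passed, at -0.75 for Ins1 (adjusted p = 0.0279) and -0.89 for Ins2 (adjusted p = 0.00737, limma). Slc2a2, the glucose transporter gene, which is also active outside beta cells at this stage, stood at 0.20 ± 0.45 in mutants and 0.04 ± 0.15 in wild-type (SD, n = 4 pools each; difference 0.17, adjusted p = 0.635). Without mutant replicate 2 it was higher by 0.39 in mutants (adjusted p = 0.0296), and the list then held 7 lower and 2 higher genes. The count of lower genes was 0 without mutant replicate 1 or without any one of wild-type replicates 1, 2 and 3.

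**Figure D4:**
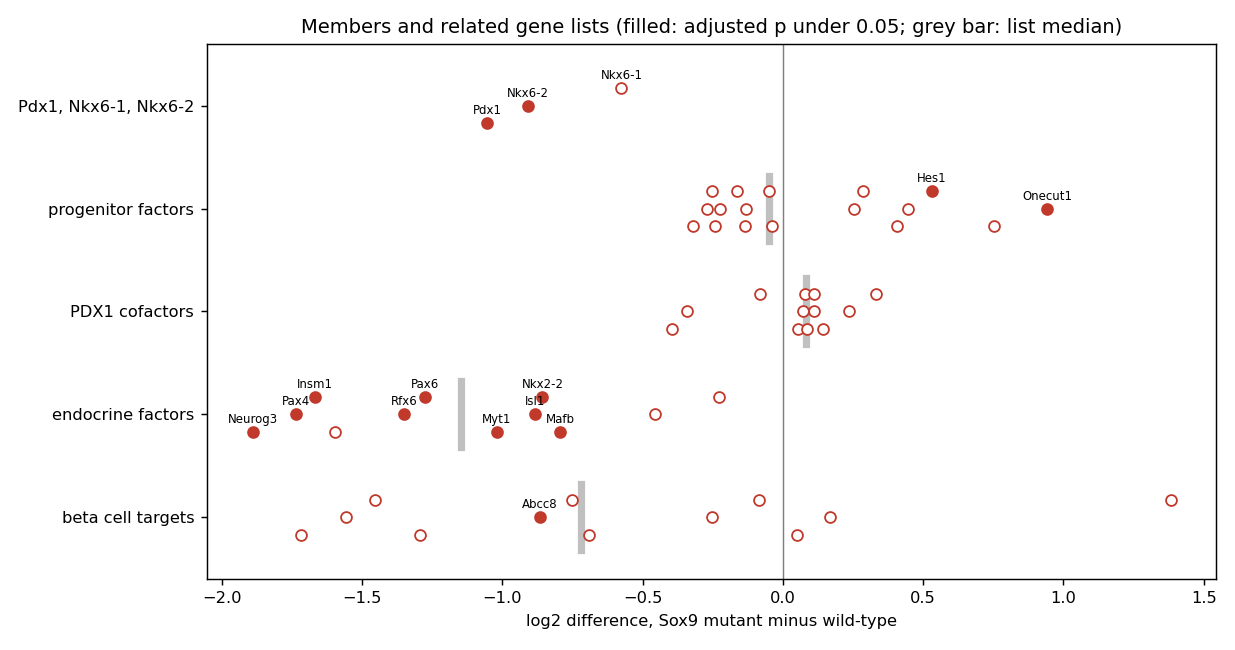
Log2 difference, Sox9 mutant minus wild-type, of each tested gene in 4 of the 5 lists related to the members (family relatives are given in the text), with filled points for a limma adjusted p under 0.05, grey bars for list medians and the 3 members for comparison. The endocrine factors have a median of -1.15 with 9 of 12 called, while the PDX1 cofactors have a median of 0.08 with 0 called.

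The genes whose levels followed each member most closely were read over the 8 arrays, among 23671 probes well above background on all of them. The points fall into the 2 genotypes, so a high Pearson r partly restates a genotype difference, and it is given as a description with no p. For Pdx1 the closest named genes were Gpt2, an alanine aminotransferase gene (r = 0.993, and 0.997 over the 7 arrays without mutant replicate 2), B4galt1, a galactosyltransferase gene (0.992 and 0.992), and Noxa1, an activator of NADPH oxidase (0.991 and 0.995). All 3 were lower in mutants, by log2 differences of -0.83, -0.68 and -2.22. For Nkx6-2 they were Brix1 (0.980 and 0.990), Znrf2 (0.970 and 0.966) and Arl5c (0.969 and 0.973), with differences of -0.22, -0.30 and -0.52, of which that of Arl5c passed (adjusted p = 0.0417, limma). For Nkx6-1 they were Klc2 (0.977 and 0.982), Mblac2 (0.977 and 0.967) and Tmem237 (0.975 and 0.963), none of them called, with differences between -0.27 and -0.21. No gene stood in more than 1 of these sets of 3.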

How the data were processed

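RNA of 8 pools, 4 Sox9 mutant and 4 wild-type, was measured on one-colour Agilent arrays of design 014868. Per the file headers, the deposited scanner files come from Agilent Feature Extraction 9.5.3.1, and their processed signal is an intensity with background subtracted and spatial trends removed within the array, not normalized between arrays. Probe positions are those of the files, on mm8 (NCBI36). The series table deposited by the authors holds an intensity too, which followed the median spot signal with a Pearson r no lower than 0.9996 on 7 arrays, and of 0.9817 for mutant replicate 2. Per the submitters' processing notes the authors used limma, with no version or steps given. The number of arrays limits the precision.

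Control spots and spots marked as outliers were left out, and log2 values of spots of one probe were averaged. Each array's 75th percentile was subtracted from these, and 29460 of 41174 probes well above background on at least 4 of the 8 arrays were kept. A model with genotype alone was fitted in R 4.3.3 by lmFit and eBayes of limma 3.58.1, two-sided, with files read by data.table (version 1.17.8) and Benjamini-Hochberg adjustment over all tested probes. A probe was called at an adjusted p under 0.05. A list gene was read by its brightest tested probe. Ratios were compared by exact permutation over pools. The code was tested on simulated data. Symbols were updated through a RefSeq table of GRCm38.p6, of whose promoters only the 250 bases before the start were used: 24375 probes matched by accession, 6301 by symbol, 2422 by synonym and 8076 had no match. Figures were drawn with matplotlib 3.10.9 and pandas 2.3.3 in Python 3.11.15.

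The members and gene lists were chosen with earlier results of these data known. One gene of the beta cell list is not reported here and was left out of the counts of that list. The naming rule took the members, Sox9, Cdh1, Epcam, up to 5 called genes of each list by adjusted p (or the smallest p up to 2 genes), 7 further genes and the 3 genes most like each member. Nothing says that the pools of a group were independent litters, so p-values measure the spread between pools only. Same-numbered pools of the 2 genotypes correlated at 0.02, -0.01, 0.02 and 0.13 in their deviations from the group means. The labels do not say whether a number marks a litter or a day, and these correlations do not settle it. The numbers were not treated as pairs in the reported fit. Alternatives tried were other scalings, background correction, filters, series table values, array weights, a replicate block and leaving out each array.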

Additional observations from a re-analysis of the deposited data

Results flagged for a closer look

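In 5 of 32 groups of 4 arrays, 1 array lay apart from the other 3, with a gap over the range above Dixon's 95% critical value. Chance alone marks about 1 such group in 20. In wild-type, replicate 4 was the outlying array in the log2 ratio of Pdx1 to Nkx6-1 (gap over range 0.924), of Nkx6-1 to Cdh1 (0.863) and of Nkx6-1 to Epcam (0.897). These 3 ratios share the Nkx6-1 value of that array, 9831 units, the lowest of the wild-type pools. In Sox9 mutants, replicate 2 was the outlying array for Nkx6-3 (0.919), at 1178 units against 29.9 to 44.2 units in the other mutant pools, and for the dim Sox9 probe A_51_P451606 (0.892), at 1649 units against 462 to 473 units. No array of the Pdx1, Nkx6-1 or Nkx6-2 levels themselves passed the critical value in either group.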

How the results depend on the processing

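Over all 19 settings the difference of each member was below 0. The filters, the choice of the brightest probe and the replicate block leave a member's difference unchanged by construction. Keeping outlier spots left it nearly unchanged, as no member spot was an outlier. The sign in these settings is therefore no separate evidence. Pdx1 passed in 18 of them, Nkx6-2 in 11 and Nkx6-1 in 1. Centring arrays on their median gave -1.45 for Pdx1 (limma adjusted p = 0.173), -1.31 for Nkx6-2 (0.271) and -1.73 for the Sox9 probe A_52_P214630 (0.113), none past the threshold, while the Sox9 probe A_52_P577484 passed at -2.91 (0.0131). That setting moved the median of all probes to -0.35, so Pdx1 stood at -1.10 and Nkx6-2 at -0.96 relative to it, as with the reported scaling. This match follows from subtracting a single number from each array and is no separate evidence. Nkx6-2 also missed the threshold with normexp background correction (-0.83, adjusted p = 0.109) and with the replicate block (-0.91, 0.0896), while Pdx1 passed with the block (0.0476). Nkx6-1 passed with array weights (-0.57, 0.0210), a fit in which mutant replicate 2 weighed 0.0452. With 1 array left out the difference was -1.09 to -1.02 for Pdx1, -1.02 to -0.85 for Nkx6-2 and -0.74 to -0.46 for Nkx6-1, and that of Nkx6-1 to Cdh1 was -0.75 to -0.48. The number of probes called, 1131 as reported, was 64 with the median, 35 with normexp (4 higher and 31 lower, against 473 and 658), 2619 with the series table, 427 with no filter on dim probes, 6786 with array weights and 57 with the replicate block. It was 325, 4708, 422 and 415 without mutant replicates 1, 2, 3 and 4, and 316, 337, 327 and 570 without wild-type replicates 1, 2, 3 and 4. The 5 lists held 12 called genes as reported, 2 with the median, 3 with normexp, 19 with the series table, 32 with array weights, 1 with the replicate block and 7 to 28 with 1 array left out, the lowest without wild-type replicate 1 and the highest without mutant replicate 2. The causes of these moves were not tested. The series table has no value for the Cdh1 probe, and with the replicate block the exact test of ratios cannot go below 0.125. All 3 member probes were well above background on all 8 arrays.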
